A study of Mus musculus with 6 samples.

Results

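Integrins and laminins are the receptors and the ligands of cell attachment to basement membrane, and 38 genes of the mouse heart table that code for their chains or close relatives are described. They were taken from 38918 listed genes by symbol. A symbol had to begin with Itga or Itgb and go on with a digit or one of the letters v, e, d, l, m and x, the integrin binding proteins being left out, or to be Lama, Lamb or Lamc followed by a single digit. The genes described are 28 integrin genes and 10 laminin genes. Of the integrin genes 18 code for alpha chains and 9 for beta chains, and Itgbl1, which codes for a secreted protein like a beta chain, is not a receptor chain.

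An integrin is a pair of 1 alpha and 1 beta chain in the cell membrane. The outer parts bind matrix or a neighbouring cell, and the short inner parts recruit talin, kindlin and other adaptors that reach the actin skeleton. A laminin is a trimer of 1 alpha, 1 beta and 1 gamma chain that polymerises into the sheet on which endothelial, epicardial and muscle cells rest. In the embryonic heart this sheet borders the cardiac jelly between endocardium and myocardium.

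RNA was sequenced from whole hearts of C57/BL6 mouse embryos at embryonic day 11.5. The conditional knockout embryos carried floxed Tie2 on both alleles together with Nfatc1Cre, a recombinase expressed from the Nfatc1 gene, which marks the endocardium. The littermate control embryos carried 1 floxed and 1 wild-type Tie2 allele, and the labels name no Cre for them. Tie2 is the angiopoietin receptor encoded by Tek, and the floxed allele is shared by both genotypes. Each genotype had 3 libraries made from RNA of 18 hearts, which the series text says was pooled and then divided. By that account the libraries are not separate animals, and p-values measure the spread between libraries, which may be technical. The recombinase acts in the endocardial lineage, a minor part of a whole heart.

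Levels are FPKM, which are fragment numbers divided by transcript length and by library total, so levels of different genes can be set side by side. The FPKM values summed to between 531209 and 582261 in conditional knockout libraries and between 481334 and 534409 in control libraries, and read depth is unknown. The globin genes Hbb-y and Hba-x, which enter these sums, were listed at 0 in every control library. In conditional knockout libraries they stood at 17557 to 23965 and 11128 to 18708 FPKM, and the reason was not tested. Tek stood at 3.38, 3.13 and 3.13 FPKM in conditional knockout libraries, against 22.4, 25.7 and 16.6 FPKM in control libraries. Summed markers of myocardium lay between 12977 and 20415 FPKM in conditional knockout libraries and between 18865 and 20046 FPKM in control libraries, the lowest being conditional knockout replicate 1. Summed markers of endothelium lay between 146 and 162 FPKM in conditional knockout libraries, below the 191 to 216 FPKM of control libraries. Those of endocardium lay between 140.1 and 168 FPKM, against 231 to 256 FPKM in controls. Single markers were not uniform. Of 8 endothelial markers, 6 had every conditional knockout library below every control library, where 8.17% of all genes tested did. Robo4 lay the other way, at 2.69 to 3.39 FPKM against 0.952 to 1.80 FPKM in controls, and Cldn5 overlapped with a higher mean. Of 7 endocardial markers, 6 were lower in every conditional knockout library, against the same 8.17%. Emcn overlapped, at 40.8 to 56.7 FPKM against 44.0 to 48.1 FPKM in controls. In bulk RNA, fewer cells of a type and less RNA per cell cannot be told apart. Summed liver markers ranged from 4.39 to 255 FPKM in conditional knockout libraries and from 26.0 to 97.3 FPKM in control libraries. Summed markers of foregut epithelium ranged from 25.1 to 40.7 FPKM and from 24.7 to 35.0 FPKM, the highest being conditional knockout replicate 1. How much tissue from outside the heart entered each library was not tested.

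No integrin or laminin chain passed the test between the genotypes. Of the 38 genes, 20 had a mean of at least 1 FPKM over the 6 libraries and were tested with limma on log2(FPKM + 1), with Benjamini-Hochberg adjustment over 12988 genes. None had an adjusted p under 0.05, in either direction. Over all genes tested, 0.123% passed lower and 0.0539% passed higher in conditional knockout hearts. At an unadjusted p under 0.05 in limma the count was 1 of 20, Itga4, higher in conditional knockout hearts, where 2.31% of all genes were higher and 4.37% lower. The median log2 fold change of the 20 genes was -0.05, against -0.01 over all genes tested. Their values ran from -0.39 for Itga9 to 0.30 for Itga4, with 8 above 0 and 12 below. The 95% intervals of single genes reached no lower than -0.94 and no higher than 0.62 on that scale.

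**Figure D1:**
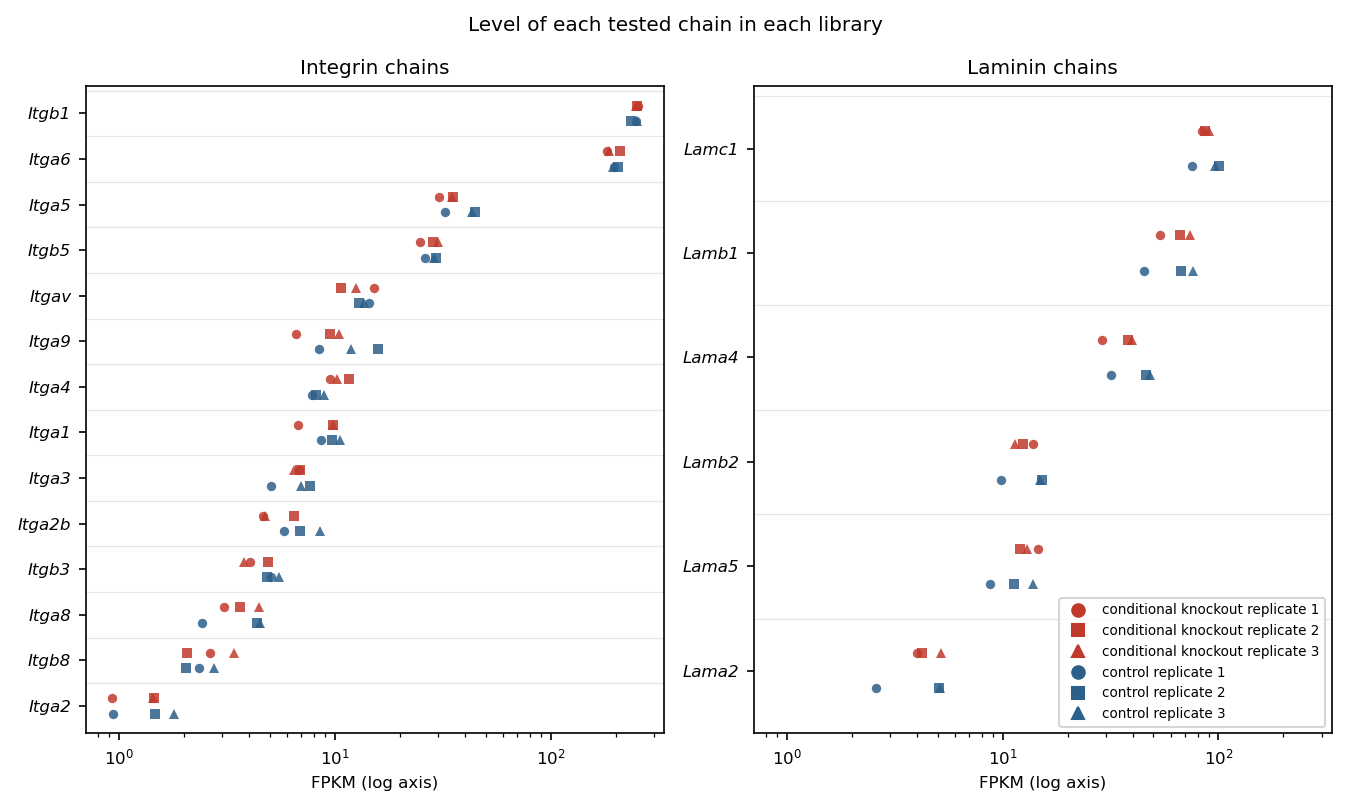
FPKM (log axis) of the 14 integrin and 6 laminin chains tested, with 1 point per library, conditional knockout above control in each row. Itgb1 and Itga6 stood above the other integrin chains in all 6 libraries. Itga4 was the single one of the 20 whose groups did not overlap.

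Itga4 was the single tested chain whose libraries did not overlap between the genotypes. It codes for the alpha chain that pairs with the Itgb1 product to bind fibronectin and Vcam1, and mice without it are known to lose the epicardium. It spans chromosome 2 from 79255426 to 79333123 on the plus strand (GRCm38). Its level was 9.49, 11.7 and 10.2 FPKM in conditional knockout libraries, against 7.82, 8.15 and 8.89 FPKM in control libraries. Each conditional knockout library stood above every control library. The means were 10.5 ± 1.10 FPKM and 8.29 ± 0.544 FPKM (SD, n = 3 each). The log2 difference came to 0.30 ± 0.11 (SE, limma adjusted p = 0.715), and its 95% interval was 0.05 to 0.55. Over all genes tested, 5.23% were separated in this direction, so 1 of 20 is near that share. Between 3 and 3 libraries an exact permutation test cannot go below p = 0.1.

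The promoter of Itga4 is shown because Itga4 was the separated chain, and that of Itga5 because Itga5 codes for the other main fibronectin-binding alpha chain of these hearts. Each runs 5′ to 3′ on the gene's strand from 250 bases before to 50 bases after the RefSeq start (GRCm38.p6). Capitals mark GC boxes (GGGCGG or CCGCCC) and E boxes (CAGCTG), searched on both strands.
Itga4, chr2:79255176-79255475, plus strand: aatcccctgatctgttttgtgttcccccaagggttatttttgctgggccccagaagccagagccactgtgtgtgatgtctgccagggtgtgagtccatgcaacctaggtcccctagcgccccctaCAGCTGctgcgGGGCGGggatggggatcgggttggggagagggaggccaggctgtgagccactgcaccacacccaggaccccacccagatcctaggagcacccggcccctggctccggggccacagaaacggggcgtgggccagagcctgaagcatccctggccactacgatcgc
Itga5, chr15:103366742-103367041, minus strand: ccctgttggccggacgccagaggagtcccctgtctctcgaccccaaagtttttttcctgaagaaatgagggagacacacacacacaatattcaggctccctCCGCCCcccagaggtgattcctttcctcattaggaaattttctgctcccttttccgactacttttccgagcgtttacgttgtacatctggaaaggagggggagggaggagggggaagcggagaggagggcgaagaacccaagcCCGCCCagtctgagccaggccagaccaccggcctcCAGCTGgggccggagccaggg
Itga4 held 1 GC box and 1 E box, and Itga5 held 2 GC boxes and 1 E box. Neither window held a TATA box (TATAAA), the GATA letters AGATAA or the ETS letters CCGGAAGT. A GC box was in 35.7% and the E box in 16.3% of 32851 promoters of this length, and the shares for the other 3 motifs were 13.6%, 11.2% and 3.89%. Promoters of 25 of the 38 genes were matched, as 28 sequences, of which 13 held a GC box and 9 the E box.

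Vcam1, a cell-surface ligand of the Itga4 and Itgb1 pair, also had separated libraries. It stood at 32.3, 35.3 and 36.5 FPKM in conditional knockout libraries, against 23.0, 25.0 and 26.8 FPKM in control libraries (log2 fold change 0.46 ± 0.10, SE, limma adjusted p = 0.324). The fibronectin gene Fn1, another ligand of that pair, had its libraries separated the other way. It stood at 148, 178 and 154 FPKM in conditional knockout libraries, against 193, 266 and 231 FPKM in control libraries (log2 fold change -0.51 ± 0.15, SE, limma adjusted p = 0.559). Neither passed the test.

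Markers of other cell types were measured beside Itga4. Summed macrophage and leukocyte markers lay between 18.6 and 20.7 FPKM in conditional knockout libraries, above the 12.6 to 15.4 FPKM of control libraries, and none of the 8 markers was listed at 0 throughout. None of the 5 tested markers passed, and 4 were separated higher, where 5.23% of all genes tested were. Among them Spi1, the myeloid transcription factor gene, stood at 2.23, 2.96 and 2.28 FPKM in conditional knockout libraries, against 0.963, 1.22 and 1.27 FPKM in control libraries (limma adjusted p = 0.278). Summed epicardial markers overlapped, at 178 to 180.1 FPKM in conditional knockout libraries and 176 to 192 FPKM in control libraries. Singly, 4 of these 7 markers lay above 0 and 3 below, where 46.8% and 53.2% of all genes tested did. Tbx18 was separated higher (log2 fold change 0.21) and Lrrn4 lower (-0.20), where 8.17% of all genes tested were separated lower. Of 6 cushion mesenchyme markers, 5 lay above 0, against the same 46.8%, and 1, Twist1, was separated higher. No marker of either list passed. The exons of Itga4 share 8.04% of their bases with Cerkl, a neighbour on the other strand, and whether the counting used strand is not stated in the sources used here. Cerkl stood at 7.05, 9.07 and 8.44 FPKM in conditional knockout libraries and at 4.95, 6.77 and 7.43 FPKM in control libraries, and the groups overlapped (limma adjusted p = 0.772). The part of these in the Itga4 values was not tested.

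Itga9, the closest relative of Itga4, lay on the other side of 0. Its product binds tenascin and the fibronectin splice form of lymphatic valves. It stood at 6.59, 9.55 and 10.5 FPKM in conditional knockout libraries, against 8.50, 15.9 and 11.9 FPKM in control libraries, and the groups overlapped. On the log2 scale the change of Itga9 was -0.39 ± 0.24 (SE, limma adjusted p = 0.808), the most negative of the family and with the widest interval, -0.94 to 0.17. The ratio of Itga4 to Itga9 was 1.44, 1.22 and 0.972 in conditional knockout libraries, against 0.920, 0.513 and 0.749 in control libraries. The ratio was chosen after the values were seen and carries no test.

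The common beta chain gene Itgb1 was the most abundant of all 38. Its product pairs with most of the alpha chains. It stood at 253, 251 and 249.7 FPKM in conditional knockout libraries, against 249.6, 236 and 251 FPKM in control libraries. The libraries overlapped, and the log2 fold change of 0.04 ± 0.10 (SE, limma adjusted p = 0.962) had a 95% interval of -0.19 to 0.26. Itgb1 made up between 86.1% and 88.6% of the summed beta chain FPKM in every library.

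The other beta chains were far lower. Itgb5, which pairs with the Itgav product to bind vitronectin, stood at 24.8, 28.7 and 30.1 FPKM in conditional knockout libraries, against 26.1, 29.5 and 29.0 FPKM in control libraries (log2 fold change -0.02 ± 0.11, SE, limma adjusted p = 0.985). Itgb8, a partner of Itgav in the activation of latent TGF-beta, lay between 2.07 and 3.41 FPKM in conditional knockout libraries and between 2.06 and 2.76 FPKM in control libraries. Itgb3, the beta chain of platelets and of angiogenic endothelium, stood at 4.03, 4.93 and 3.79 FPKM in conditional knockout libraries, against 5.09, 4.85 and 5.52 FPKM in control libraries. A single conditional knockout library reached into the control range. Itgb3 thus had a log2 fold change of -0.23 ± 0.12 (SE, limma adjusted p = 0.776).

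Itga2b, the platelet alpha chain that pairs with the Itgb3 product and marks early blood progenitors, lay on the same side. It stood at 4.66, 6.51 and 4.78 FPKM in conditional knockout libraries, against 5.84, 6.89 and 8.54 FPKM in control libraries. The groups overlapped, with a log2 fold change of -0.36 ± 0.16 (SE, limma adjusted p = 0.772). Summed megakaryocyte and platelet markers lay between 21.5 and 36.2 FPKM in conditional knockout libraries and between 28.9 and 40.2 FPKM in control libraries. All 6 tested markers of that list had values below 0, where 53.2% of all genes tested did, and none passed. The part of platelet RNA in the Itga2b and Itgb3 values was not tested.

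Among the laminin receptors Itga6 was by far the most abundant. Its product, with that of Itgb1, is a main laminin receptor of endothelial and muscle precursor cells. It stood at 183, 209 and 186 FPKM in conditional knockout libraries, against 197, 204 and 194 FPKM in control libraries. The groups overlapped (log2 fold change -0.05 ± 0.10, SE, limma adjusted p = 0.951), and the 95% interval was -0.29 to 0.20. Itga6 supplied between 63.2% and 69.1% of the summed alpha chain FPKM of a library. Itga3, the receptor chain for the Lama3 and Lama5 products, lay between 6.47 and 6.91 FPKM in conditional knockout libraries and between 5.09 and 7.66 FPKM in control libraries. Itga7, the laminin receptor chain of mature muscle, was under 0.35 FPKM in every library, and Itgb4, the hemidesmosome beta chain, under 0.89 FPKM.

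The RGD receptors bind the arginine, glycine and aspartate motif of fibronectin and vitronectin. Itga5, the alpha chain of the main fibronectin receptor, stood at 30.6, 35.5 and 34.9 FPKM in conditional knockout libraries, against 32.5, 44.6 and 43.3 FPKM in control libraries. All 3 conditional knockout libraries lay below control replicates 2 and 3 and overlapped with control replicate 1. Itga5 had a log2 fold change of -0.24 ± 0.14 (SE, limma adjusted p = 0.807). Itgav stood at 15.3, 10.7 and 12.6 FPKM in conditional knockout libraries, against 14.4, 13.0 and 13.7 FPKM in control libraries (log2 fold change -0.10 ± 0.13, SE, limma adjusted p = 0.897). Itga8, whose product binds nephronectin, had a log2 fold change of 0.01 ± 0.21 (SE, limma adjusted p = 0.996).

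Of the collagen receptor chains, Itga1 and Itga2 were tested. Itga1 stood at 6.76, 9.84 and 9.80 FPKM in conditional knockout libraries, against 8.66, 9.67 and 10.6 FPKM in control libraries. Itga2, known from epithelium and platelets, stayed under 1.8 FPKM in all 6 libraries. The groups overlapped for both, with log2 fold changes of -0.13 ± 0.15 and -0.07 ± 0.19 (SE, limma adjusted p = 0.876 and 0.961). Itga10 and Itga11, of cartilage and fibroblasts, had means below 1 FPKM.

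The laminin alpha chains were led by Lama4, the alpha chain of endothelial and muscle basement membrane. It stood at 28.9, 38.2 and 40.0 FPKM in conditional knockout libraries, against 31.6, 46.2 and 47.9 FPKM in control libraries. Replicates 2 and 3 of the conditional knockout lay below those of the control, and control replicate 1 was low. Lama4 had a log2 fold change of -0.22 ± 0.19 (SE, limma adjusted p = 0.831). Lama5, the broadly used alpha chain of mature basement membranes, stood at 14.6, 12.0 and 13.0 FPKM in conditional knockout libraries, against 8.76, 11.4 and 13.8 FPKM in control libraries (log2 fold change 0.22 ± 0.16, SE, limma adjusted p = 0.815). Lama2, the muscle and nerve alpha chain, lay between 4.02 and 5.21 FPKM in conditional knockout libraries and between 2.58 and 5.13 FPKM in control libraries.

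Within a library the shares of Lama4 and Lama5 in the laminin alpha chain sum were separated between the genotypes. Lama4 supplied 59.0%, 68.6% and 67.6% of the summed alpha chain FPKM in conditional knockout libraries, against 71.4%, 72.2% and 70.4% in control libraries. Lama5 supplied 29.9%, 21.6% and 21.9% in conditional knockout libraries, against 19.8%, 17.8% and 20.3% in control libraries. The ratio of Lama5 to Lama4 was 0.507, 0.315 and 0.324 in conditional knockout libraries, against 0.277, 0.246 and 0.289 in control libraries. Conditional knockout replicate 1, the library with low myocardial markers, gave the highest ratio, and the other 2 also lay above every control. Conditional knockout replicate 1 was also highest in summed foregut epithelium markers and, among these, in Cldn6, Epcam, Nkx2-1, Cdh1, Foxa2 and Krt5. Krt8 and Krt18 were not highest there. Cldn6, Epcam and Nkx2-1 were separated higher in conditional knockout libraries, and the rest of that list overlapped. Of the separated ones, Cldn6 alone reached a mean of 1 FPKM. The part of foregut tissue in the Lama5 values was not tested. Shares do not depend on the scaling of a library. They were computed for 19 tested alpha and beta chains within their own class, and 4 were separated, the others being those of Itga4, at 3.51% to 3.79% against 2.56% to 2.89% in control libraries, and of Itgb3, at 1.32% to 1.71% against 1.77% to 1.90%. The permutation p of each was 0.1, before any adjustment over the 19 shares. That is the smallest value that an exact two-sided test of 3 against 3 libraries can give. Libraries that do not differ by genotype would separate a share with that same frequency of 0.1. Of the levels of all genes tested, which are not shares, 8.17% were separated lower and 5.23% higher. The Lama4 and Lama5 shares are parts of the same sum, so they do not count as independent.

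**Figure D2:**
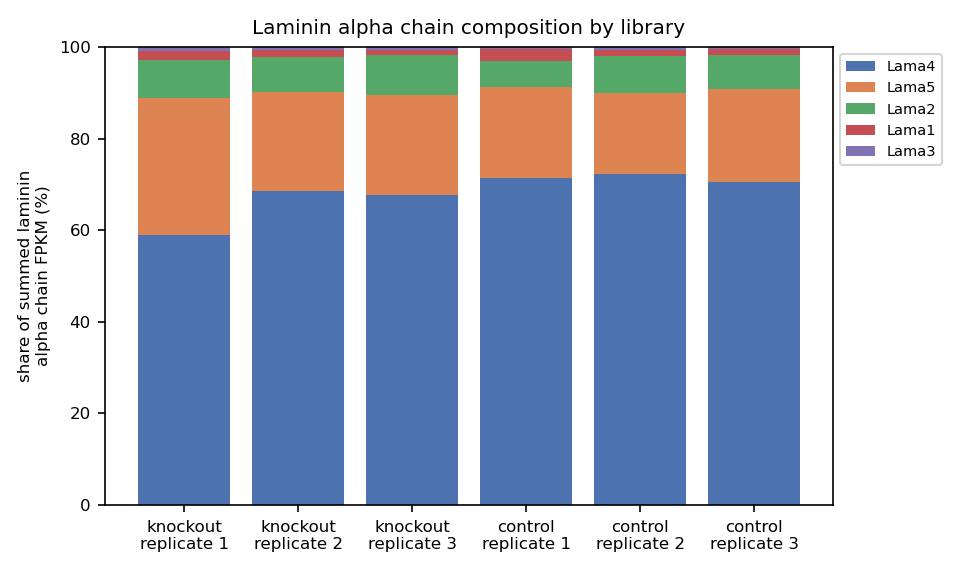
Share of each alpha chain gene in the summed laminin alpha chain FPKM (%), 1 bar per library, conditional knockout on the left. Lama5 made up 21.6% to 29.9% of the sum in conditional knockout libraries and 17.8% to 20.3% in control libraries.

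Lamb1 and Lamc1 were the most abundant laminin genes, and their chains with an alpha chain form the common laminins. Lamc1, the gamma chain of nearly all laminins, stood at 83.5, 86.5 and 90.8 FPKM in conditional knockout libraries, against 75.4, 101 and 96.4 FPKM in control libraries (log2 fold change -0.05 ± 0.13, SE, limma adjusted p = 0.959). Lamb1 stood at 53.5, 66.3 and 74.0 FPKM in conditional knockout libraries, against 45.3, 67.1 and 76.2 FPKM in control libraries. The ranges of both genotypes lay over each other for both genes, and Lamb1 had a log2 fold change of 0.06 ± 0.21 (SE, limma adjusted p = 0.975).

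Lamb2, the beta chain of arterial and neuromuscular basement membrane, stood at 13.85, 12.4 and 11.4 FPKM in conditional knockout libraries, against 9.86, 15.2 and 14.9 FPKM in control libraries (log2 fold change -0.06 ± 0.17, SE, limma adjusted p = 0.964). Lamb2 was lowest in control replicate 1. By class, the chains summed to 48.9, 55.7 and 59.2 FPKM for alpha and 67.9, 79.3 and 85.9 FPKM for beta in conditional knockout libraries. The same sums were 44.3, 64.0 and 68.1 FPKM for alpha and 55.8, 82.8 and 91.7 FPKM for beta in control libraries. Lamc1 alone exceeded the beta chain sum, and the beta chain sum exceeded the alpha chain sum, in all 6 libraries.

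Control replicate 1 was low in laminin genes. The 10 laminin genes summed to 201, 222 and 236 FPKM in conditional knockout libraries, against 176, 249 and 257 FPKM in control libraries. Control replicate 1 was the lowest of the 6 libraries for 5 of the 6 tested laminin chains and 3 of the 14 tested integrin chains, where it was lowest for 25.7% of all genes tested. Among genes whose longest transcript has at least 5000 and under 7000 bases that share was 37.2%, and among those of at least 7000 bases it was 50.35%. The log2(FPKM + 1) of replicate 1 was set against the mean of the other 2 libraries of its genotype. The median difference over laminin chains was -0.13 in conditional knockout replicate 1 and -0.56 in control replicate 1, and over integrin chains -0.19 and -0.18. Control replicate 1 was also low for long transcripts in general. For all tested genes whose longest annotated transcript is under 2000 bases the medians were 0.01 in conditional knockout replicate 1 and 0.13 in control replicate 1. For transcripts of at least 5000 and under 7000 bases they were -0.01 and -0.10, and for at least 7000 bases -0.07 and -0.21. The median longest transcript was 6834 bases for the tested laminin genes and 5798 bases for the tested integrin genes. The part of transcript length in the family's values was not tested.

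**Figure D3:**
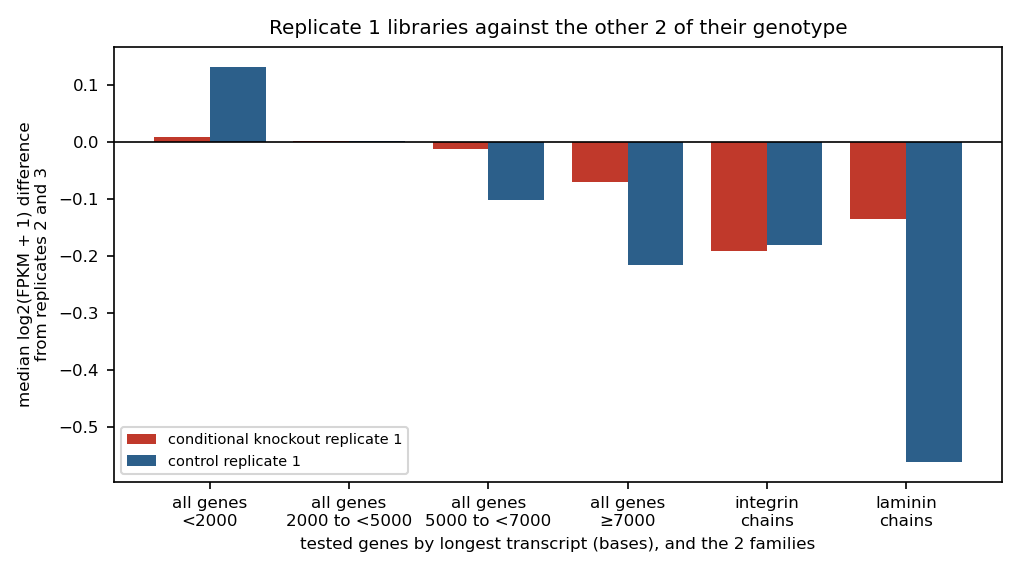
Median difference in log2(FPKM + 1) between replicate 1 and the mean of replicates 2 and 3 of the same genotype, for tested genes by longest transcript (bases) and for the tested integrin and laminin chains. In control replicate 1 the median was 0.13 for the shortest transcripts, -0.21 for the longest and -0.56 for laminin chains.

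Without control replicate 1, still no chain passed, and the smallest adjusted p was 0.474, that of Itga5. The values moved downward: 16 of the 20 lay below 0, against 12 with all libraries. Control replicate 1 lay below the mean of control replicates 2 and 3 for 18 of the 20. Leaving it out therefore lowers the values of those 18 by construction. Itga4, Lama5, Itgb8 and Itgb1 were the 4 above 0. Then 8 chains had every conditional knockout library below both remaining controls, namely Itga2, Itga3, Itga5, Itga9, Itga2b, Lama4, Lamb2 and Lamc1. That is 8 of 20 where 15.5% of all genes tested were separated lower, and Itga4 was the single chain separated higher, where 12.6% were. The log2 fold change without that library was -0.40 for Lama4, -0.38 for Itga5, -0.60 for Itga9, -0.47 for Itga2b, -0.18 for Lamc1 and 0.26 for Itga4. Leaving out other libraries moved values in either direction. Upward, Lama4 had -0.08 without conditional knockout replicate 1, and Itga9 had -0.18 without control replicate 2. In each of these settings 9 of the 20 lay below 0. Downward, 14 of the 20 lay below 0 once conditional knockout replicate 3 was dropped, and Lama4 had -0.30 and Itga9 -0.51. No test of the 8 against the share over all genes was made, and that share covers genes of all transcript lengths.

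**Figure D4:**
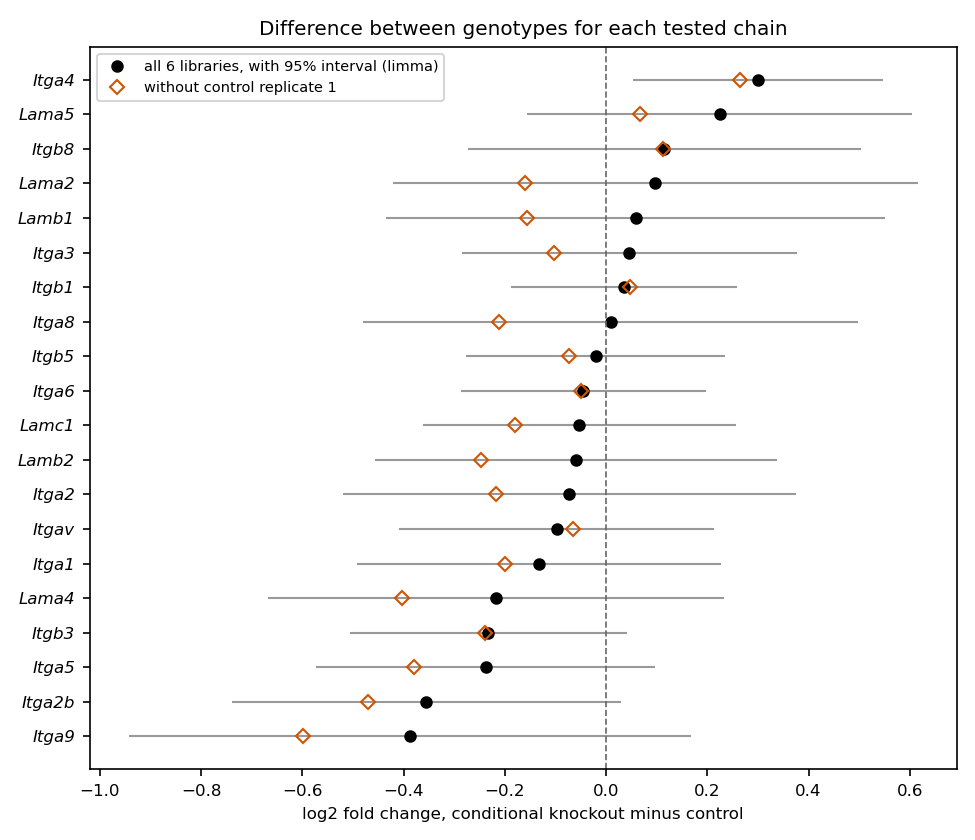
Log2 fold change (conditional knockout minus control, log2(FPKM + 1) scale) of the 20 tested chains, black points with 95% intervals for all 6 libraries and open diamonds without control replicate 1. The interval of Itga4 alone lies on 1 side of 0, and most diamonds lie to the left of their points.

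A further 18 chains had means of 0.903 FPKM or less and were not tested. Most belong to leukocytes, epithelia or cartilage. The leukocyte beta chain Itgb2 stood at 0.378, 0.776 and 0.642 FPKM in conditional knockout libraries, against 0.923, 0.845 and 1.20 FPKM in control libraries. Its partner Itgam, the macrophage and granulocyte alpha chain, stood at 0.256, 0.338 and 0.344 FPKM in conditional knockout libraries, against 0.513, 0.394 and 0.360 FPKM in control libraries. Both had separated libraries and lay lower in conditional knockout hearts, while the summed macrophage markers lay higher there. Most exon bases of Itgam (68.7%) are shared with an annotated overlapping gene, so its values are uncertain.

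Itga7 was also separated, at 0.216, 0.220 and 0.199 FPKM in conditional knockout libraries, against 0.348, 0.335 and 0.281 FPKM in control libraries. With no filter, 3 of the 38 genes were separated lower (Itgb2, Itgam and Itga7), where 3.54% of all genes were. Another 2 were separated higher (Itga4 and the intraepithelial lymphocyte chain Itgae, at most 0.111 FPKM), where 3.25% were. The remaining 14 untested genes overlapped. They were Itga10, Itga11, Itgad, Itgal, Itgax, Itgb2l, Itgb4, Itgb6, Itgb7, Itgbl1, Lama1, Lama3, Lamb3 and Lamc3. Lama1, the alpha chain of the early embryo, lay between 0.648 and 1.01 FPKM in conditional knockout libraries and between 0.807 and 1.13 FPKM in control libraries. Of the 38 genes, 4 were listed at 0 in at least 1 library, among them Itgb2l, which was above 0 in control replicate 1 alone.

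The adaptors that bind integrin tails showed no gene past the threshold. Of 19 tested members, 18 lay below 0, where 6916 of 12988 genes did, and the median was -0.17. At an unadjusted p under 0.05 in limma, Zyx was lower and Lims2 higher, where 4.37% of all genes were lower and 2.31% higher. The libraries of 5 were separated lower and those of 1 higher, where 8.17% and 5.23% of all genes were. The 3 most abundant were the zyxin gene Zyx, with a log2 fold change of -0.32 ± 0.13, the kindlin gene Fermt2, with -0.09 ± 0.12, and the integrin-linked kinase gene Ilk, with -0.16 ± 0.14 (SE, limma adjusted p = 0.742, 0.893 and 0.825). Without control replicate 1, 9 of the 19 were separated lower, where 15.5% of all genes were, and 18 again lay below 0. Without conditional knockout replicate 1, 15 lay below 0. The talin gene Tln1 stood at 32.1, 44.5 and 47.0 FPKM in conditional knockout libraries and at 40.3, 46.9 and 40.2 FPKM in control libraries.

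The partners of laminin in basement membrane also had no gene past the threshold. Of 12 tested members 9 lay below 0, where 53.2% of all genes tested did, and the median was -0.17. Separated libraries were found for 6 lower and none higher, where 8.17% and 5.23% of all genes were. At an unadjusted p under 0.05 in limma, 5 were lower, where 4.37% of all genes were. The 3 most abundant were Sparc, a collagen-binding matricellular gene, at -0.09 ± 0.12, the endostatin collagen gene Col18a1 at -0.62 ± 0.14, and the laminin receptor gene Bcam at -0.20 ± 0.10 (SE, limma adjusted p = 0.894, 0.333 and 0.776). Col18a1 stood at 56.8, 71.5 and 58.0 FPKM in conditional knockout libraries, against 84.6, 109 and 94.3 FPKM in control libraries. The nidogen gene Nid1, which links laminin to collagen, stood at 38.0, 40.5 and 36.1 FPKM in conditional knockout libraries, against 42.9, 51.4 and 49.2 FPKM in control libraries (limma adjusted p = 0.69). Dystroglycan, a laminin receptor that is not an integrin, is encoded by Dag1, which stood at 62.6, 70.8 and 69.1 FPKM in conditional knockout libraries and at 62.5, 76.1 and 69.0 FPKM in control libraries. Without control replicate 1 all 12 lay below 0 and 9 were separated lower, where 15.5% of all genes were. The endothelial marker sums given above were separated in the same direction as Col18a1 and Nid1, and their part in these values was not tested.

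Of 11 tested genes for other integrin ligands, none passed, 4 lay above 0 and 7 below (46.8% and 53.2% over all genes), and the median was -0.09. At an unadjusted p under 0.05 in limma, Vcam1 and the nephronectin gene Npnt were higher and Fn1 and Mfge8 lower, where 2.31% of all genes were higher and 4.37% lower. These 4 were also the separated ones, where 5.23% of all genes were separated higher and 8.17% lower. Without control replicate 1 the count separated lower was 5 in place of 2, and the share over all genes was 15.5% in place of 8.17%. Among the 3 most abundant, besides Fn1, the collagen gene Col3a1 had a log2 fold change of -0.19 ± 0.17 and the periostin gene Postn 0.07 ± 0.42 (SE, limma adjusted p = 0.835 and 0.987). Postn was lowest in the replicate 1 library of both genotypes, at 70.5 FPKM in the conditional knockout and 60.2 FPKM in the control, where the other libraries lay between 138 and 161 FPKM.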

How the data were processed

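RNA of whole embryonic hearts was measured in 3 conditional knockout and 3 control libraries. The authors deposited FPKM values for 38918 genes in a single table, with no read counts. The submitters' processing notes name TopHat2 2.0.9, Cufflinks 2.2.1, Cuffdiff and HTSeq, with no role, and the build mm10. Neither strand nor multiply matching reads are described in the sources used here.

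Genes averaging 1 FPKM or more were tested with limma 3.58.1 (R 4.3.3), with a trend on mean level and without a block, on log2(FPKM + 1), a scale that understates changes of low genes. Residual degrees of freedom were 4 and prior degrees of freedom 3.33. The fit was tested on simulated data. Members and lists were chosen with earlier results of these data known. Full values are given for tested members that passed, were separated, or had a mean of at least 10 FPKM, and for the list members that passed or the 3 most abundant. Others, and any ratios, were chosen after their values were seen. Separated means that every library of one genotype lay above every library of the other. Positions come from GENCODE M21 (GRCm38), where all 38 genes were found, and longest transcripts were found for 99.0% of tested genes. A gene that the naming rule also matches is not reported here. Alternatives covered the pseudocount, filter, scaling, trend, block and each library.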

Additional observations from a re-analysis of the deposited data

How the results depend on the processing

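No integrin or laminin chain, adaptor, basement membrane partner or other integrin ligand gene passed the threshold under any of the 14 alternatives. Over the tested genes, libraries with the same number deviated together with correlations of 0.19, 0.031 and 0.23, and over the 12805 of them above 0 in every library with 0.27, 0.11 and 0.44. Control replicate 2 correlated better with conditional knockout replicate 3 (0.056) than with its own number over the first set, and less well (0.095) over the second. Whether the numbers pair the libraries thus depends on the genes used, and the block was kept as an alternative. With the replicate block the count of chains passing was again 0 (smallest adjusted p 0.362, Itga4), and 11 genes were lower and 6 higher over all genes, against 16 and 7. Separated chains numbered 1 of 20. They were 5 of 38 with no filter (3.54% of all genes lower and 3.25% higher), 10 of 20 within replicates 2 and 3 (9 lower and 1 higher, where 24% of all genes were lower and 22% higher), and between 2 and 9 without any 1 library (9 without control replicate 1, 4 without conditional knockout replicate 2, 3 without control replicate 3, 2 without each other library). In those 6 settings 9.55% to 16.6% of all genes were separated lower and 7.21% to 12.7% higher.

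Of the 20 tested chains, 7 kept their sign in all alternatives: Itga4 (0.23 to 0.36), Itgb1 (0.0071 to 0.092), Itga5 (-0.38 to -0.16), Itga9 (-0.60 to -0.18), Itga2b, Itgb3 and Lama4 (-0.40 to -0.076). The other 13 changed sign in at least 1, all without passing. Quantile normalization gave 0.0056 for Itgb5, -0.011 for Itga8 and 0.0074 for Itga6. Replicates 2 and 3 alone gave -0.11 for Itga3, -0.030 for Lamb1, -0.0041 for Lama5, -0.10 for Lama2, 0.0067 for Itgb5 and -0.11 for Itga8. Without 1 library, the values of chains that changed sign lay within -0.10 to 0.15 for Itga3, -0.16 to 0.21 for Lamb1, -0.16 to 0.23 for Lama2, -0.21 to 0.13 for Itga8, -0.078 to 0.059 for Itgb5, -0.18 to 0.027 for Lamc1, -0.25 to 0.039 for Lamb2, -0.22 to 0.044 for Itga2, -0.21 to 0.028 for Itga1, -0.22 to 0.019 for Itgav and -0.018 to 0.24 for Itgb8. The cause was not tested. The unknown read depth limits what can be said of the 18 chains under 1 FPKM.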
